A study of Drosophila melanogaster with 2 samples.

Results

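A divergent promoter is a stretch of DNA from which a pair of neighbouring genes is transcribed in opposite directions. Summits at such promoters were collected from a chromatin immunoprecipitation and sequencing (ChIP-seq) study of lame duck (lmd) in Drosophila melanogaster. A summit, the highest point of a peak, belonged to a divergent promoter when transcription start sites (TSSs) of 2 or more protein-coding genes lay within 500 bp of it, with at least 1 TSS on each strand. Of the 4998 summits that the authors' conservative peak set holds on the 6 main chromosome arms, 676 met this rule, which is 13.5% (95% interval 12.6 to 14.5). They made up 35.4% (33.3 to 37.6) of the 1910 summits within 500 bp of any protein-coding TSS. Another 1204 summits lay near TSSs of 1 gene only (single-gene promoters), 30 lay near several genes on 1 strand, and 3088 had no protein-coding TSS within 500 bp.

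The chromatin came from whole embryos of the lmd-GFP strain, aged 0 to 18 h, that carried an insertion expressing an lmd-eGFP fusion, and it was precipitated with an antibody against GFP. Both samples, biological replicates 1 and 2 by their labels, belong to 1 group, so there was no contrast between conditions. All cell types of the embryo are mixed in each sample, and neither the promoter that drives the fusion nor the state of the untagged lmd gene is given in the sources used here. Control libraries were not analysed here, nor is the read depth known, and every interval below covers counting error only. Peaks and genes are not replicates of the experiment.

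lmd encodes a Gli-family zinc finger protein on which the fusion-competent myoblasts depend, cells of the embryonic mesoderm that join founder cells to form muscle fibres. In the compact fly genome many broadly expressed genes are arranged head to head, and the DNA between their TSSs is usually kept free of nucleosomes. Such promoters are known for binding of DREF, BEAF-32 and M1BP, DNA-binding proteins of housekeeping promoters and domain boundaries, while the GAGA factor is known from promoters of developmentally controlled genes.

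The intervals between the innermost opposite-strand TSSs are shown for the 6 summits of highest signal whose TSSs lie 60 to 300 bp apart with the summit between them, and for 3 further ones that hold the full DREF word. They are intervals that contain no protein-coding exon in the annotation. Each is the plus strand of Release 6 (dm6) as given by RefSeq, read 5′ to 3′ from the base after the minus-strand gene's TSS to the base before the plus-strand gene's TSS. Capitals mark CGATA or its reverse complement TATCG, the core of the BEAF-32 site, and TATCGATA, the DREF site, which contains the BEAF-32 core on both strands. No copy of GGTCACAC, the core of the M1BP site, was found in any of the 9.

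Tcs5 and CHMP2B, chr3L:5139396-5139618: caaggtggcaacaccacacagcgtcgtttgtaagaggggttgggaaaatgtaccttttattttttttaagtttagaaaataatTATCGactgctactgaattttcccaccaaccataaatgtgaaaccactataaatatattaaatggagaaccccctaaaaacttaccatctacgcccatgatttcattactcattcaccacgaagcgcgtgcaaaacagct
CG7601 and CIA30, chr3R:29736746-29736964: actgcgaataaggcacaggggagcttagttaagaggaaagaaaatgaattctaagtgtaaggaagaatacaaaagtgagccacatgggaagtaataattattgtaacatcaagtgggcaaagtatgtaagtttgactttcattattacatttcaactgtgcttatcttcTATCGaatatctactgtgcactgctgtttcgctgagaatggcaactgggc
Art3 and mRpS10, chr3R:15229409-15229664: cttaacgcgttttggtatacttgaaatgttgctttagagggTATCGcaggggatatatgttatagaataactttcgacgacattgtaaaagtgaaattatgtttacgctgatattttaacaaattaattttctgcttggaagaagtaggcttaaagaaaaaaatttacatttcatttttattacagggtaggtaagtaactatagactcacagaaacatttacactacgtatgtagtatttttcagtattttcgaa
Atat and Shc, chr3L:9426759-9427009: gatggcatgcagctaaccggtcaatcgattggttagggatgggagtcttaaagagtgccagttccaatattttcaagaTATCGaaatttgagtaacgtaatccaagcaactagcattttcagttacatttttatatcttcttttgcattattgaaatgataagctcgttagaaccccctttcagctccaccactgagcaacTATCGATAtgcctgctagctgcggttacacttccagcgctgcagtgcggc
fws and Lamtor3, chr2L:17481030-17481230: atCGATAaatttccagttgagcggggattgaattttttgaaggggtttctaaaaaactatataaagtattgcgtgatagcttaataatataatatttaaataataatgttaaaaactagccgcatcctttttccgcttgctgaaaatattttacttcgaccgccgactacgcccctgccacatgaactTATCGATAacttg
CG13390 and CG17294, chr2L:8376798-8377034: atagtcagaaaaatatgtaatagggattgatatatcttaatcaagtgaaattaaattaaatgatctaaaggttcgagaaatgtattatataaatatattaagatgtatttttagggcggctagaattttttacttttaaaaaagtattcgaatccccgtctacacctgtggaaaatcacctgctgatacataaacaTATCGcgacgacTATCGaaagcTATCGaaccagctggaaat
Gmd and CG3792, chr2L:4977024-4977311: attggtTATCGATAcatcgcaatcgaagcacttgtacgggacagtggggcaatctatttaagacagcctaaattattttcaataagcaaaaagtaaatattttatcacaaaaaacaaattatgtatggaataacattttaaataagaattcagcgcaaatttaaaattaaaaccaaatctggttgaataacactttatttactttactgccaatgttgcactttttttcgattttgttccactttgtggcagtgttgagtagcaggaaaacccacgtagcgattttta
Myo95E and TBC1d7, chr3R:24161499-24161726: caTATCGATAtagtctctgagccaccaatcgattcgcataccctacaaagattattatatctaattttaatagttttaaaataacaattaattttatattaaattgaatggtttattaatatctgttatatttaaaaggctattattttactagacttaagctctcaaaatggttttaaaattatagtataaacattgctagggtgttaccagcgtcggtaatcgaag
TH1 and mei-41, chrX:16391439-16391697: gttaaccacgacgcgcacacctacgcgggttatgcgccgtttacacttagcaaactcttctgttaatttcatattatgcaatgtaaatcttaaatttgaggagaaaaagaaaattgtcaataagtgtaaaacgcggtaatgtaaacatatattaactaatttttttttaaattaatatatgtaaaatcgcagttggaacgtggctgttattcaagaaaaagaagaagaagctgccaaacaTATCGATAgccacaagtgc

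All 9 intervals held at least 1 copy of the BEAF-32 core, and 5 held the DREF word. Of these 5, 3 were chosen for the DREF word, so they hold it and the BEAF-32 core by the way they were chosen. The DREF word was near an end of the interval, away from the summit, in each of these 5. Its nearest base lay 82 bp from the summit between Atat and Shc, 81 bp between fws and Lamtor3, 149 bp between Gmd and CG3792, 140 bp between Myo95E and TBC1d7, and 139 bp between TH1 and mei-41. The first 3, of highest signal, held 1 BEAF-32 core each, read as TATCG on the plus strand, and no DREF word. The BEAF-32 core is common. Within 100 bp of the midpoint between the TSSs, 41.3% of all 2667 head-to-head pairs held it, 38.3% with a summit and 42.3% without. In the highest of 4 equal signal classes of divergent promoters, 31.4% held it within 100 bp of the summit and 60.9% within 200 bp. The 9 intervals are examples and do not give its share at strong sites.

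The strongest divergent-promoter summit lay between Tcs5, of the tRNA threonylcarbamoyl modification pathway, and CHMP2B, a subunit of the membrane-cutting ESCRT-III complex. Its peak at chr3L:5139321-5139686 had a signal of 3325, the authors' value in the conservative set, which is called from both replicates, and ranked 3rd among all peaks. In the lists of each replicate alone the same site had a signal of 1234 in replicate 1 and 2136 in replicate 2. The TSSs of the pair were 224 bp apart, and the summit lay 108 bp upstream of Tcs5 and 116 bp upstream of CHMP2B, close to the middle. The next peak, between CG7601 and the complex I assembly gene CIA30 at chr3R:29736664-29737023, had a signal of 3028, with 1084 in replicate 1 and 1967 in replicate 2. Its summit was likewise nearly midway, 103 bp upstream of CG7601 and 117 bp upstream of CIA30.

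Genes of the mitochondrial ribosome stood at 3 of the 7 strongest divergent-promoter summits. The signal was 2836 at mRpS10 and the arginine methyltransferase gene Art3, 2436 at mRpS23 and CenG1A, which encodes an Arf GTPase-activating protein, and 2123 at mRpL23 and CG9004. Over all 19 mitochondrial ribosome genes at divergent-promoter summits the median signal was 198, against 208 over all such summits. The 4th strongest summit, with a signal of 2650, belonged to Chro, which encodes a chromodomain protein of chromosome band boundaries, and Ssl1, a subunit of the general transcription factor TFIIH. This summit was not between the TSSs: it lay 88 bp downstream of the Chro TSS and 193 bp upstream of the Ssl1 TSS. At Chro and Ssl1 the replicates gave 1124 and 1537.

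The remaining genes among the 20 strongest had mixed cellular roles. Atat, a tubulin acetyltransferase gene, and Shc, an adaptor of receptor tyrosine kinases, had a signal of 2033 (chr3L:9426702-9427047). CG9147 and Fbw5, an F-box gene, had 2029, Pex11ab, a gene of peroxisome division, had 1837 with CG8320, and Elp5, of the Elongator complex, had 1738 with CG1275. Lamtor3, of the lysosomal Ragulator complex, and fws, of the Golgi COG complex, had 1721. The pair Pal1 and Pdrg1 had 1699.6, and Arl1, a Golgi GTPase gene, had 1558 with brm, the ATPase of the Brahma chromatin remodelling complex. The mitochondrial protease gene Lon and PIG-F, of GPI anchor synthesis, closed the 20 with 1403 (chr3L:19612131-19612524), after CG12194 with tank, CG5098 with CG5757, CG13390 with CG17294, CG3437 with CG3552, and CG8360 with CG8372. All 20 pairs were head to head and all 20 peaks overlapped the thresholded set of each replicate, and at 13 of the 20 the summit lay between the TSSs.

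The 3 weakest divergent-promoter peaks had signals of 2.61 at CG1971 and CG42233, 8.75 at CG6565 and the RNA polymerase III factor gene Bdp1, and 10.7 at Kpc2 and hrg, a poly(A) polymerase gene. Each of these peaks overlapped a stronger peak of the same list. The stronger peak had a signal of 82.3 at CG1971 and CG42233, 914 at Bdp1 and CG6565, and 174 at Kpc2 and hrg. The same was true of all 14 divergent-promoter peaks with a signal below 50. In total, 57 of the 676 peaks shared at least 1 bp with another listed peak and 29 of them were the weaker peak of the overlap. For such a peak, the value given for each replicate is that of the strongest overlapping peak, so Bdp1 and CG6565 had 440 in replicate 1 and 474 in replicate 2 at both of their summits.

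The 676 summits fell on 644 different sets of genes, 32 of which held 2 summits each, and named 1331 different genes. At 643 summits the set was a pair, at 29 it held 3 genes, and at 4 it held more. The largest set, with 10 genes, lay at chr3R:21365247-21365630 (signal 917, with 371 in replicate 1 and 550 in replicate 2) and consisted of the pre-mod(mdg4) genes, separately annotated alternative 3′ parts of the transcripts of mod(mdg4), which encodes chromatin proteins. The others were PIG-M and NC2alpha, a repressor of TATA-dependent transcription, with 3 CG genes (signal 407), Rpp20, an RNase P subunit gene, and COX6B, of the respiratory chain, with 2 CG genes (148), and a set of 4 CG genes that included CG31650 (159). In 665 of the 676 cases the nearest TSSs of either strand were head to head, and in 11 the genes overlapped at their 5′ ends.

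Among all protein-coding genes, 17.2% (2395 of 13945) had a summit within 500 bp of one of their TSSs, and 9.54% stood at a divergent-promoter summit. Genes with a TSS of an opposite-strand neighbour within 1000 bp had a summit in 29.9% of cases (1536 of 5141), against 9.79% (779 of 7960) of genes with no other gene's TSS that close. The difference of 20.1 percentage points (18.7 to 21.5) left out 0. Both genes of a pair can share 1 summit, so these genes are not independent of each other, and a summit was counted for a gene without regard to which gene of the pair it was nearer. The share was higher with more annotated TSSs in both layouts. Of genes with 1 TSS, 26.0% with an opposite-strand neighbour had a summit, against 6.02% of lone genes. Of genes with 4 or more TSSs, the shares were 51.8% and 42.5%, and the interval of that difference held 0 (9.28 points, -0.485 to 18.8).

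Whether a head-to-head pair held a summit varied with the distance between its TSSs. The annotation holds 2667 head-to-head pairs up to 1000 bp apart, and 25.7% (686) had a summit within 500 bp of both TSSs. Some pairs share a summit or a TSS, so this number is not the number of summits. The share was highest for TSSs 200 to 300 bp apart, where 231 of 542 pairs held a summit (42.6%, 38.5 to 46.8), and it was 39.3% (34.6 to 44.1) at 300 to 400 bp. The shares of closer pairs were 18.5% (14.8 to 22.8) at 100 to 200 bp, 20.6% (16.0 to 26.0) at 50 to 100 bp and 25.4% (19.6 to 32.2) up to 50 bp. Of all pairs 200 to 400 bp apart 41.2% held a summit, against 20.7% of those up to 200 bp apart, a difference of 20.5 points (16.2 to 24.6). The closer pairs had the longer stretch in reach of both TSSs, which shrinks as the TSSs move apart and measured 750 bp for TSSs 250 bp apart, the middle of the 200 to 300 bp class. The shares of wider pairs were 28.1% at 400 to 500 bp, 20.7% at 500 to 600 bp and 3.66% beyond 600 bp, where the stretch in reach of both is shorter by construction.

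**Figure D1:**
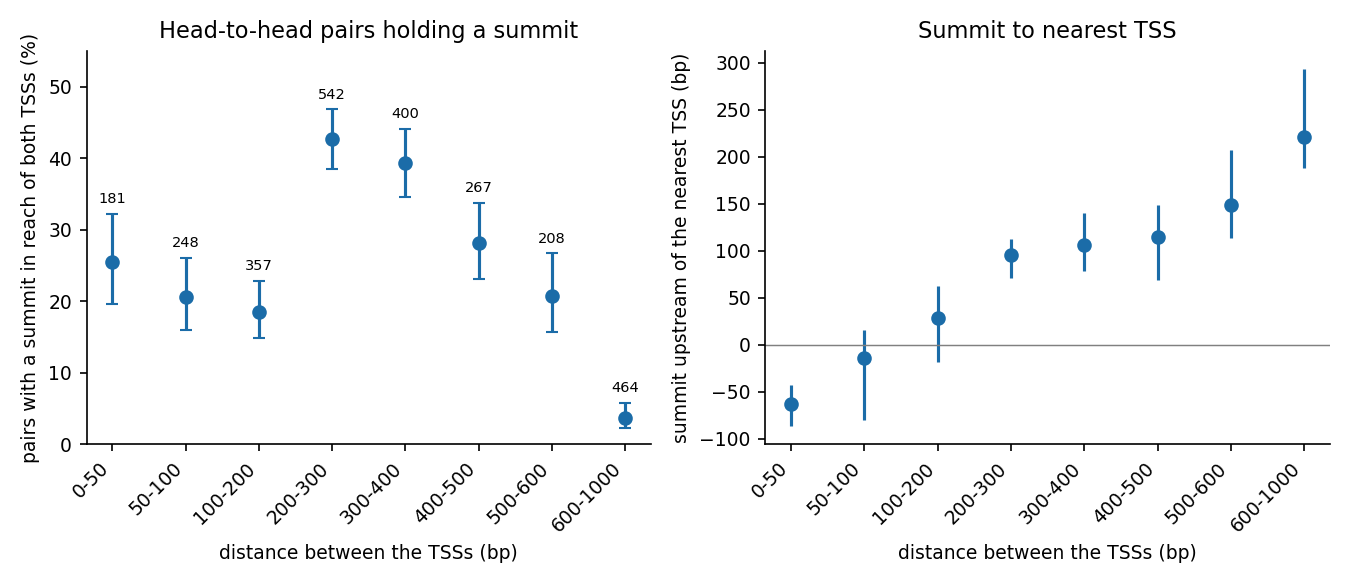
Head-to-head pairs by the distance between their TSSs (bp). Left, the share of pairs with a summit within 500 bp of both TSSs, in percent, with Wilson 95% intervals and the number of pairs above each point; the share peaks at 42.6% for 200 to 300 bp. Right, the median position of divergent-promoter summits upstream of the nearest TSS (bp), with quartiles as bars. Negative values lie inside the transcribed region, as at pairs up to 50 bp apart (median -63 bp). Beyond 500 bp the rule itself places the summit between the TSSs.

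The summit lay between the TSSs at 570 of the 676 divergent promoters (84.3%, 81.4 to 86.9). The nearest TSSs of either strand were 295.5 bp apart at the median, with quartiles of 229 and 399 bp. At pairs 200 to 300 bp apart, 203 of 224 summits (90.6%) were between the TSSs and 147 (65.6%) were in the middle when the interval was divided into 3 equal parts. At 300 to 400 bp the middle part held 43.6% of the summits, and at 400 to 500 bp it held 29.2%. Beyond that it held 22 of 50 summits (44%) at 500 to 600 bp and 11 of 20 (55%) beyond 600 bp. The summit lay a median of 95 bp upstream of the nearest TSS at 200 to 300 bp, 106 bp at 300 to 400 bp, 148.5 bp at 500 to 600 bp and 221 bp beyond 600 bp. For TSSs more than 500 bp apart, the rule itself places the summit between them, and nearer to their middle as the distance grows. These 50 and 20 summits therefore count among the 570 by construction, and their middle-part shares and distances are not independent of the rule.

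At pairs up to 50 bp apart only 2 of 25 summits (8%) were between the TSSs. Their median was 63 bp inside the transcribed region of the nearest gene. SerRS, the seryl-tRNA synthetase gene, and CG17260 are the closest pair, with TSSs 8 bp apart, and had a signal of 731 with the summit 14 bp from the SerRS TSS. At RpL7, a large ribosomal subunit gene, and Ripalpha the TSSs were 30 bp apart and the summit was 37 bp from that of RpL7 (signal 523). Signal did not follow the distance in one direction over the whole range: the median was 294 at pairs up to 50 bp apart, 198 at 50 to 100 bp and 226 at 100 to 200 bp. At wider pairs it was mostly lower with distance: 255 at 200 to 300 bp, 204 at 300 to 400 bp and 176 at 400 to 500 bp. It was 178 at 500 to 600 bp and 140 beyond 600 bp. From the lowest to the highest of 4 equal signal classes the median TSS distance was 356, 298, 285 and 269 bp.

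**Figure D2:**
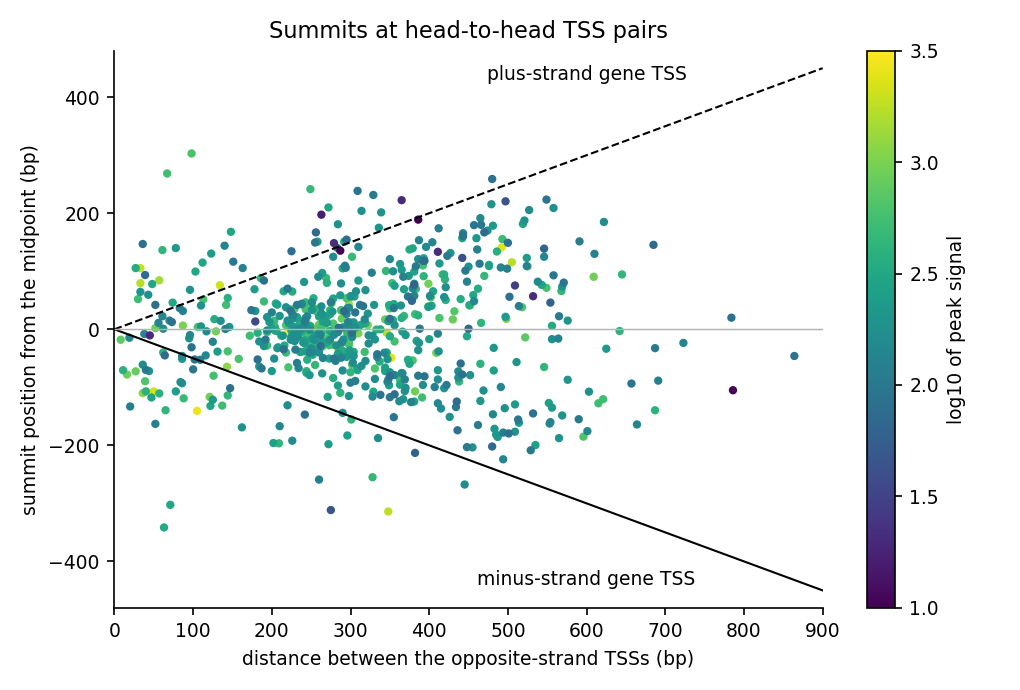
Each point is 1 of the 665 summits at head-to-head pairs; the horizontal axis is the distance between the TSSs (bp) and the vertical axis the position of the summit from their midpoint (bp), with the minus-strand gene's TSS on the solid line and the plus-strand gene's TSS on the dashed line. Points between the lines (568) have their summit between the TSSs, and colour gives the log10 of peak signal.

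Summits at divergent promoters sat closer to a TSS than those at single-gene promoters. The nearest TSS was 97 bp away at the median at divergent promoters (quartiles 64.8 and 130 bp), against 196 bp at single-gene promoters (114 and 313 bp). With a TSS on either side the nearest one is closer by construction, so this difference is not independent of the rule. The summit lay 50 to 150 bp upstream of the nearest TSS at 60.2% (407) of divergent promoters, against 23.2% (279) of single-gene promoters (37.0 points, 32.6 to 41.3). The share with the summit upstream of the nearest TSS, rather than inside the gene, was 85.4% (568 of 665) at head-to-head pairs and 84.4% (1016 of 1204) at single-gene promoters, a difference of 1.03 points whose interval held 0 (-2.45 to 4.32). At pairs more than 500 bp apart the rule alone puts the summit upstream.

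The summits of the replicates lay close together. Of the 508 divergent-promoter peaks that overlapped the thresholded sets of both replicates, 431 (84.8%) had replicate summits within 50 bp of each other, with a median distance of 16 bp. Single-gene promoters were nearly the same, with 84.7% (685 of 809) and a median of 17 bp. At 499 head-to-head pairs among the 508, the summit was between the TSSs in both replicates at 426 (85.4%) and in neither at 64. The nearer strand was the same in both replicates at 411 (82.4%).

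Fewer summits had their farther TSS near the rule's limit of 500 bp than at 100 to 400 bp, but there was no gap at the limit. Just inside it lay Rok with RpS19a (499 bp to the farther TSS, signal 86.2), hrg with Kpc2 (498 bp, 10.7), and RpS6 with bys, a ribosome assembly gene (498 bp, 91.2). Just outside lay Vha13 with Nup58 (131.7), CG5715 with crb, a gene of epithelial polarity (101.6), and the centrosome gene cnn with Golgin97 (43.5), all at 503 bp. The farther TSS was up to 100 bp away at 46 summits, 100 to 200 bp away at 286 and 400 to 500 bp away at 63. Outside the limit it was 500 to 600 bp away at 42 summits and 600 to 700 bp away at 50. With a limit of 1000 bp, 856 summits met the rule.

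Signal at divergent promoters ran from 2.61 to 3325, and its middle was slightly above that of single-gene promoters. The median was 208 at divergent promoters (quartiles 142 and 392), 190 at single-gene promoters (113 and 325) and 142 away from protein-coding TSSs (97.1 and 233). The signal exceeded 197, the median of all promoter summits, at 53.6% (362) of divergent promoters, against 47.5% (572) of single-gene promoters. This difference of 6.04 points (1.33 to 10.7) was not beyond its interval under 4 of the alternatives tried, 1 of them with replicate 1 alone (1.11 points, -4.31 to 6.52). Divergent promoters, 13.5% of all summits, held 6 of the 20 strongest peaks of the whole list and 29 of the 100 strongest. The highest signal at a single-gene promoter was 4246.

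**Figure D3:**
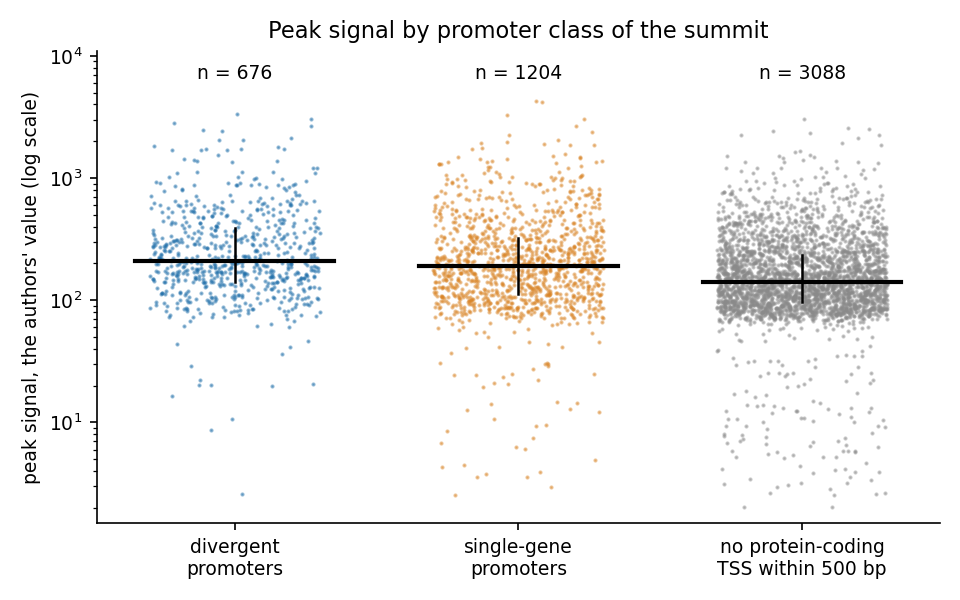
Peak signal (the authors' value, log scale) of summits at 676 divergent promoters, 1204 single-gene promoters and 3088 sites with no protein-coding TSS within 500 bp. Each point is 1 summit, thick lines are medians (208, 190 and 142) and thin lines span the quartiles; the clouds overlap along nearly their whole range.

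Peaks at divergent promoters overlapped the replicate sets somewhat more often than those at single-gene promoters. They overlapped the thresholded sets of both replicates in 75.1% of cases (508 of 676), against 67.2% (809 of 1204) at single-gene promoters, a difference of 7.96 points (3.68 to 12.1). The conservative set was itself kept from a comparison of the replicates. Overlap with their sets is therefore a description and not an independent check. The set of replicate 1 held 75.7% of divergent-promoter peaks, against 71.8% of single-gene ones, and the interval of that difference held 0 (3.98 points, -0.200 to 8.02). The set of replicate 2, which is the larger one with 5544 main-arm peaks against 3929 in replicate 1, held 97.0% and 89.2%. Of the 676, 148 were in the set of replicate 2 alone, 4 in that of replicate 1 alone and 16 in neither.

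This share moved with signal. All promoter summits were divided into 4 equal classes by signal. In the lowest class, 26.9% of divergent-promoter peaks and 19.8% of single-gene ones were in both sets, and in the highest class 100% and 98.6% were. Within none of the 4 classes did the difference leave 0 out of its interval. The 16 peaks in neither set had signals up to 98.4 (Kpc1 and CG42542) and included those at the innate immunity gene GNBP3 with orb2, and at the Cdc25 phosphatase gene stg with CG45544. Across the 672 divergent-promoter peaks found in both ranked lists, the replicate signals had a Spearman correlation of 0.866 (0.765 across 1193 single-gene peaks), as a description over peaks that share their libraries. Sas-4 with gfzf, SMC5 with CRIF, and CG12129 with CG1407 were the promoters whose peaks had no counterpart in the ranked list of replicate 1.

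Within 100 bp of the summit the BEAF-32, DREF and motif 7 words were more frequent, and the GAGA factor word rarer, at divergent than at single-gene promoters. For 15 words, the share of summits with at least 1 copy on either strand within 100 bp was compared. Each interval is for 1 word and was not widened for the 15 comparisons. At divergent promoters 44.7% of summits (302) had the BEAF-32 core CGATA, against 29.4% (354) at single-gene promoters, a difference of 15.3 points (10.7 to 19.8). The DREF word TATCGATA was found at 8.73% (59) of divergent promoters, against 3.74% (45) of single-gene promoters (4.99 points, 2.73 to 7.53), and each of those also counts for the BEAF-32 core that it contains. CANCNCTA, the core of promoter motif 7, was at 21.6% (146) against 10.1% (122), a difference of 11.5 points (8.0 to 15.1). GAGAGAG, the GAGA factor word, was nearly missing from divergent promoters, at 3 of 676 (0.444%), against 59 of 1204 (4.90%) at single-gene promoters. The 3 were those of frj with retm, of Rb97D with ms(3)K81, and of Sgf11, of the SAGA deubiquitinase module, with CG32202.

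These differences grew with the width of the window around the summit. The motif 7 difference was 1.78 points within 50 bp, with an interval that held 0 (-0.430 to 4.25), and 22.3 points within 200 bp. The DREF difference was 1.74 points within 50 bp and 13.2 within 200 bp (18.8% against 5.56%). The BEAF-32 core difference was 5.06 points within 50 bp and 19.9 within 200 bp, and that of the GAGA factor word -1.25 and -13.1 points. All of these intervals except that of motif 7 within 50 bp left out 0.

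The distance to the TSS was not the same in these classes, and the DREF and BEAF-32 differences were smaller among summits near a TSS. Among summits at most 150 bp from their nearest TSS, in an alternative added after the data were seen, the DREF word was at 9.95% of divergent promoters and 8.26% of single-gene promoters (1.69 points, -1.99 to 5.21). The BEAF-32 core was at 46.6% and 42.0% (4.62 points, -1.57 to 10.7). Both differences then held 0 in their intervals, so neither word's share could be told apart between the classes near the TSS. Those of motif 7 (7.40 points, 2.37 to 12.2) and the GAGA factor word (-3.60 points, -5.93 to -1.80) still left out 0.

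TATAAA, the TATA box word, was within 100 bp of 44.7% of divergent-promoter summits, against 34.9% of single-gene ones, and TATTTTTA, a core of the site of the muscle factor Mef2, of 14.8% against 10.6%. Base composition moved with both words: the windows had a median GC of 33.1% at divergent promoters and 34.8% at single-gene promoters, and 29.9% against 21.8% of windows were below 30% GC. Among windows of 30 to 40% GC the differences were 2.88 points for the TATA box (-3.41 to 9.22) and 0.793 for the Mef2 core (-3.30 to 5.21), and both intervals held 0. Among summits at most 150 bp from their nearest TSS the TATA box difference was 14.5 points (8.45 to 20.3). That of the Mef2 core was 3.99 points there, with an interval that held 0 (-0.161 to 7.99). Without replicate 1 the Mef2 core difference was 2.26 points, and its interval also held 0. TCAGTT, the initiator word, was rarer at divergent promoters (9.76% against 13.3%, -3.53 points, -6.39 to -0.469). Without replicate 2 its difference was -2.62 points, with an interval that held 0 (-6.04 to 1.04).

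The words for the Gli and Zic zinc finger families, to the first of which lmd belongs, were rare in both classes. CCACCCA, a Gli-type core, was at 2.22% (15) of divergent promoters, against 1.91% (23) of single-gene promoters, and CCCGCTG, a Zic-type core, at 0.888% (6), against 1.41% (17). Both intervals held 0. The strongest divergent promoters with the Gli-type word were those of Fum1 and ND-ASHI (signal 729), of IntS6 and Rtel1 (508) and of par-6 and CG8188 (448). The difference for M1BP (3.55% against 2.16%) held 0 in the conservative set but not with replicate 1 alone (2.33 points, 0.746 to 4.34) or replicate 2 alone (1.95 points, 0.239 to 3.86). Within 200 bp M1BP was at 13.0% against 4.73% (8.28 points, 5.59 to 11.2). The E-box CAGCTG was at 11.5% against 9.22% within 100 bp, a difference that held 0, but at 34% against 20.3% within 200 bp (13.7 points, 9.47 to 17.9), and its interval also left out 0 with a TSS limit of 1000 bp and among windows of 30 to 40% GC. The E-box CACGTG held 0 within 100 bp and left out 0 within 200 bp (2.75 points, 0.548 to 5.20). The differences for motif 6 (GGTATTTT), Zelda (CAGGTAG) and Pleiohomeotic (GCCATNTT) held 0 within 100 bp and within 200 bp.

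**Figure D4:**
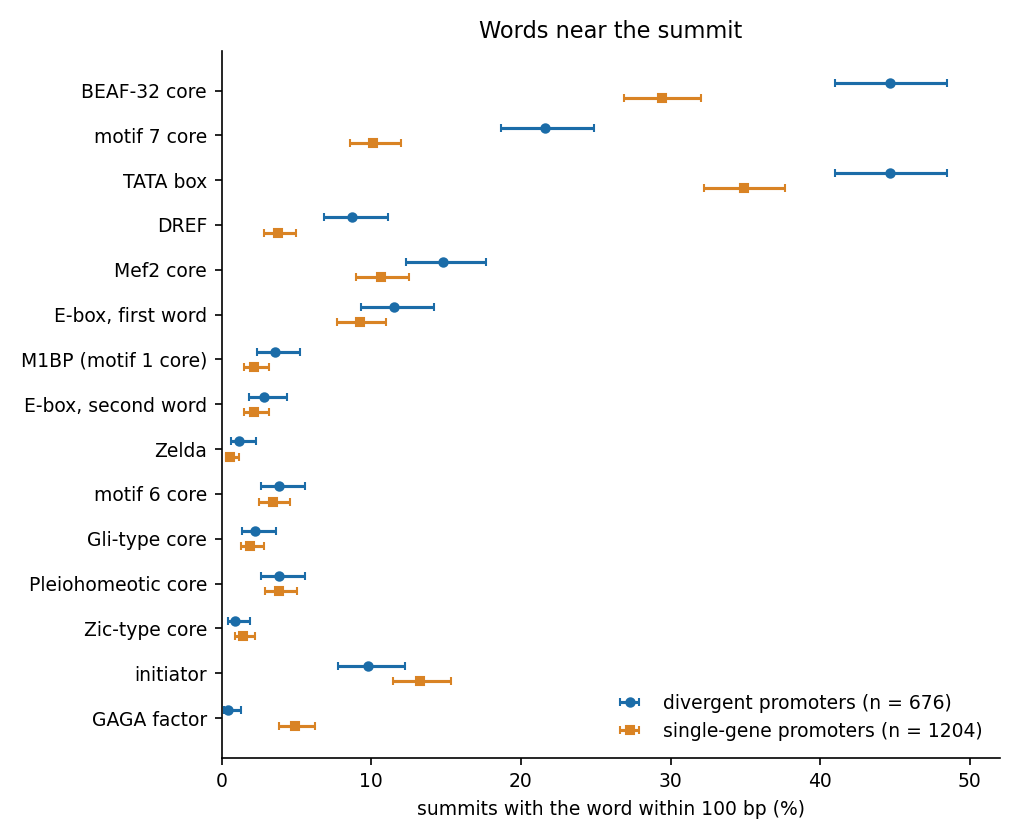
Share of summits (percent) with each of 15 words on either strand within 100 bp, at 676 divergent promoters (circles) and 1204 single-gene promoters (squares), with Wilson 95% intervals; words run from the largest positive difference at the top to the largest negative one at the bottom. The first E-box word is CAGCTG and the second CACGTG. The BEAF-32 core reaches 44.7% and 29.4%, the GAGA factor word 0.444% and 4.90%.

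Head-to-head pairs with a summit were then set against those without one, with the same words counted within 100 bp of the midpoint between the TSSs. Here the DREF word was no more frequent where a summit was present: 7.0% of the 686 pairs with a summit had it, against 9.09% of the 1981 pairs without (-2.09 points, -4.24 to 0.374), and 8.55% of all 2667. The BEAF-32 core was at 38.3% against 42.3% (-3.96 points, -8.15 to 0.315; 41.3% of all pairs), and both intervals held 0. M1BP words were rarer at pairs with a summit, with 3.21% against 6.16% (-2.95 points, -4.53 to -1.08; 5.40% of all). Motif 7 was more frequent, with 17.1% against 11.1% (5.95 points, 2.94 to 9.22; 12.6% of all), and so was the TATA box, with 45.3% against 37.9%. The GAGA factor word was at 1.02% against 2.78%, and the initiator at 9.91% against 15.3%. Pairs with a summit had a lower GC, with a median of 30.8% against 33.8%, and a median TSS distance of 279 bp against 320 bp, values that move with these shares and whose part in them was not tested.

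Within the 676 divergent promoters the DREF and BEAF-32 words were less frequent close to the summit at the strongest peaks than at the weakest, but not within a wider window. The DREF word was at 4 of the 169 summits in the highest of 4 equal signal classes (2.37%), against 18 of 169 in the lowest class (10.7%), a difference of -8.28 points (-14.0 to -3.07). In the classes between, it was at 18 and 19. Within 50 bp the counts were 0 against 8 (-4.73 points, -9.06 to -1.52). Within 200 bp they were 24 against 32 (14.2% against 18.9%), and the interval held 0 (-4.73 points, -12.7 to 3.25). The pairs Gmd with CG3792, Myo95E with TBC1d7 and TH1 with mei-41, shown above, are in the highest class and have their DREF word 139 to 149 bp from the summit. The 4 within 100 bp were at Atat with Shc (signal 2033), Lamtor3 with fws (1721), GCS2beta, of glutathione synthesis, with CG5131 (624), and the chromatin remodeller gene Chd1 with Bem46 (416). The BEAF-32 core was at 31.4% (53) of the highest class, against 50.9% (86) of the lowest (-19.5 points, -29.4 to -9.05). Within 200 bp it was at 60.9% against 69.2%, and the interval held 0 (-8.28 points, -18.2 to 1.87). Motif 7 was at 13.6% against 22.5%, and M1BP at 1 summit, that of RpL7 with Ripalpha (523), against 7.

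Within 100 bp the order was also seen in each replicate's own signal. With classes of replicate 1 signal the DREF difference was -11.9 points (-18.3 to -5.94), and with those of replicate 2 signal it was -5.33 (-10.9 to -0.0774). For the BEAF-32 core the differences were -28.0 and -18.3 points, and both intervals left out 0. Without the 29 peaks that overlap a stronger listed peak, the differences were -9.88 points for DREF and -23.5 for the BEAF-32 core. Among windows of 30 to 40% GC the DREF difference held 0 (-6.52 points, -14.6 to 0.923), with 3 against 9 summits. The differences for motif 7 and M1BP held 0 under most of the alternatives, as given among the processing alternatives. The median signal was 174 at the 59 summits with the DREF word, against 215 at the 617 without. DREF words lay 67 bp from the summit at the median, M1BP words 77.5 bp and TATA words 39 bp.

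**Figure D5:**
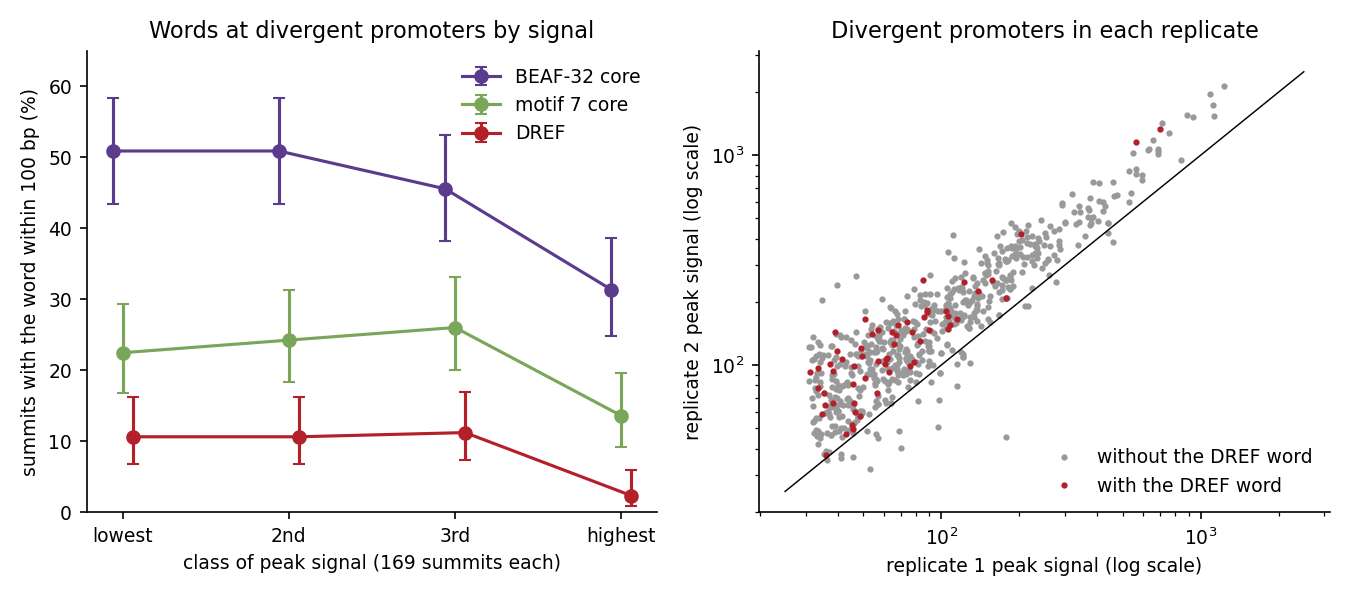
Left, share of divergent-promoter summits (percent) with the BEAF-32 core, the motif 7 core and the DREF word within 100 bp, by class of peak signal (169 summits each), with Wilson 95% intervals; the DREF share is 10.7%, 10.7%, 11.2% and 2.37%, lowest class first. Right, signal of each divergent-promoter peak in replicate 1 and replicate 2 (log scales), with summits holding the DREF word in red and the line of equal values. Few peaks of the highest signal class have the word, 5 of 168 by replicate 1 signal and 6 of 169 by replicate 2 signal.

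Of 16 lists of genes, those for housekeeping machines had 9.26% to 32.6% of their genes at divergent-promoter summits, against 9.54% of all genes, and those for muscle transcription factors, sarcomere, and neurons and glia had none. These shares are counts without a test, and they are read beside how often the genes of a list have an opposite-strand neighbour within 1000 bp, which is 36.9% of all genes. Of all genes with such a neighbour, 29.9% (1536 of 5141) had a summit within 500 bp of an own TSS. It was 8 of 35 for the spliceosome, 5 of 26 for the proteasome and 9 of 28 for translation factors. The nuclear pore had 7 of 22, the RNA exosome and ribosome assembly 7 of 23, and DNA replication and repair 11 of 34. Oxidative phosphorylation had 16 of 45, RNA polymerase II, general factors and Mediator 18 of 44, and aminoacyl-tRNA synthetases 9 of 23.

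Of the 92 cytoplasmic ribosomal protein genes, 30 (32.6%) stood at a divergent-promoter summit. They were led by RpL32 with CG7943 (signal 619, with 215 in replicate 1 and 407 in replicate 2), RpS27 with the nuclear pore gene Nup37 (608), RpL34b with CG8132 (595) and RpL7 with Ripalpha (523). An opposite-strand neighbour was present at 55 of the 92 (59.8%), and 37 of these 55 had a summit within 500 bp of an own TSS, as did 14 of 34 lone ones. For the mitochondrial ribosome the count was 19 of 73 (26.0%), where 58 (79.5%) had an opposite-strand neighbour, 21 of these 58 had a summit, and none of 13 lone genes did. mRpL20 with Icmt (923) was the strongest after the 3 named above. Of the 33 aminoacyl-tRNA synthetase genes, 9 (27.3%) were at such a summit, led by GluProRS with AP-1sigma (791), SerRS with CG17260 (731), IleRS with Hem (453) and ThrRS with Patsas (425).

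Of 63 genes for RNA polymerase II, general factors and Mediator, 18 (28.6%) stood at a divergent-promoter summit: Taf5, of TFIID, with Pex6 had 713, the Mediator gene MED27 with elm had 626, and the polymerase subunit genes Polr2B with 140up and Polr2H with CG11247 had 599 and 562. For the spliceosome the count was 8 of 39 (20.5%), led by SNRPG with mthl1 (593) and barc with Aef1 (548), for the nuclear pore 7 of 26 (26.9%), led by Nup37 and Nup98-96, and for oxidative phosphorylation 16 of 90 (17.8%), led by the complex I genes ND-ASHI (729) and ND-MWFE, the second with TppII (599). DNA replication and repair had 10 of 48 (20.8%), among them the ATR kinase gene mei-41 with TH1, a subunit of the pausing factor NELF (653), and Ercc1 with the condensin gene SMC2 (527). Proteasome genes (5 of 48, 10.4%) and translation factors (5 of 54, 9.26%) were near the share of all genes. The strongest of these were Rpn3 with l(2)37Bb (243) and eIF3h with senju (333). The list for the RNA exosome and ribosome assembly had 7 of 28 (25%), but its name pattern also takes in its 2 strongest members, Rrp1, a DNA repair endonuclease gene with a signal of 431, and Fibp, a growth factor binding protein gene with 204. Csl4, of the exosome, with Nup160 had 201.

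Genes of insulator and promoter factors had the highest share of the 16 lists, 7 of 19 (36.8%, 19.1 to 59). Besides Chro (2650) these were Cp190, a cofactor of several insulator proteins, with CG4338 (1011, with 407 in replicate 1 and 603 in replicate 2), pzg, a partner of Chro and DREF, with CG12974 (526), M1BP with CG8202 (287), gfzf with Sas-4 (221), Dref with RpL13 (154) and su(Hw) with Polr2I (85.5). Dref, su(Hw) and M1BP thus had weaker peaks than Chro and Cp190. Of the 13 genes of this list with an opposite-strand neighbour, 8 had a summit within 500 bp of an own TSS.

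Of 21 genes of myoblast fusion, 4 (19.0%) stood at a divergent-promoter summit, each across from a gene outside that list. Hem, a subunit of the SCAR complex that drives actin branching, shared its summit with IleRS (chr3L:22288388-22288629, signal 453, with 223 in replicate 1 and 234 in replicate 2), and the summit was nearer to IleRS. mbc, the Rac activator myoblast city, shared one with Nup98-96 (434, with 173 in replicate 1 and 261 in replicate 2), nearer to Nup98-96. Vrp1, the WASp-interacting protein of fusion sites, shared one with the cohesin protector gene mei-S332 (191), and Abi, of the SCAR complex, with the actin regulator gene twf (141), both nearer to the fusion gene. In contrast, none of 34 mesoderm and muscle transcription factor genes, 30 sarcomere genes (a list that also holds mle, an RNA helicase gene) and 23 neuron and glia genes was at a divergent-promoter summit. Only 3, 7 and 7 of these had an opposite-strand neighbour within 1000 bp, so few could be. Of the genes with such a neighbour, 0 of 3, 2 of 7 and 2 of 7 had a summit within 500 bp of an own TSS. Over all genes with such a neighbour the share was 29.9%.

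In all, 138 divergent-promoter summits had a gene of the 16 lists, and at 14 both genes of the pair were listed. Mcm2, of the replicative helicase, stood across from RPA1, of the single-strand binding protein, and Dis3, of the exosome, across from Rrp5, of ribosome assembly. Others joined different machines, such as Nup37 with RpS27, Prosbeta2 with mRpL39, Msh6 of mismatch repair with Prp31 of the spliceosome, ATPsynCF6 with Sec13, and BCAS2 with RpL4.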

How the data were processed

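ChIP-seq peak lists of 1 group of 2 biological replicates were used, in dm6 coordinates per the labels. No aligner, peak caller or version is given in the sources used here. Per the file headers and listing, the deposited lists are thresholded and ranked peaks of each replicate and of both replicates together. The signal is the deposited value of the authors' peak caller, with no normalization stated, and serves within 1 list. The deposited score ran from 830 to 1000, and the deposited −log10 global IDR (irreproducible discovery rate) of the conservative set was at least 2.00009, so the set was kept at an IDR of about 0.01. Read depth is unknown.

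Summits of the conservative set were placed against TSSs of annotation release 115. Words and GC were read within 100 bp of the summit from the RefSeq genome. Overlap meant at least 1 bp. Shares carry Wilson and differences Newcombe 95% intervals, a difference counting as shown where its interval left out 0; no p-value was computed. The scripts (Python 3.11.15, numpy 2.4.6, pandas 2.3.3, scipy 1.17.1) were tested on simulated data.

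The members, gene lists and words were chosen with earlier results of these data known. Named were the 20 strongest and 3 weakest summits, 3 on either side of the limit, up to 4 per list, and those with the most genes. Of the 20, 1 is not reported here. Genes named at small counts (the GAGA factor, Gli-type, DREF and M1BP words, peaks in neither set or absent from replicate 1), the closest pairs, the remaining insulator and promoter factor genes and pairs of listed genes were chosen after their values were seen. Alternatives changed the TSS limit, peak set, replicate, TSS annotation, overlap and word window.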

Additional observations from a re-analysis of the deposited data

How the results depend on the processing

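Of 60 values recomputed for the main results, 50 were counted as the same as the main value. For differences this meant the same direction with an interval that left out 0. The counts and the share of summits between the TSSs have no such threshold. Counts taken as the same still ranged from 484 to 893 summits, against 676, and from 6 to 10 differing words, against 7. The number of divergent-promoter summits was 410 with a limit of 250 bp, and from 519 to 893 when 1 replicate was left out. The share of summits between the TSSs was 80.7% with a limit of 1000 bp and 76.7% with the most 5′ TSS of each gene only. The signal difference between divergent and single-gene promoters held 0 in its interval at a global IDR of 0.001 (4.6 points), with 1 summit per promoter (4.74) and within 30 to 40% GC (4.33), and ranged from 1.11 to 8.57 points without 1 replicate. The difference in overlap with both replicate sets was 1.19 points at an IDR of 0.001, with its interval holding 0. Of the 15 words, 7 differed, against 4 with a window of 50 bp, 10 with a window of 200 bp (8 higher and 2 lower at divergent promoters) and 3 at summits within 150 bp of a TSS. The cause of these shifts was not tested. The alternatives on TSS distance, GC, genes with 1 TSS and signal classes were added after the data were seen.

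Among single words, the initiator difference turned to 0.334 points with a window of 50 bp, with an interval holding 0. The other changes of sign concerned differences whose intervals held 0. They were CACGTG at a window of 50 bp (-0.109), CAGCTG within 150 bp of a TSS (-0.269), the Gli-type core at a limit of 250 bp (-0.391), at a window of 200 bp (-0.732) and without 1 replicate (-0.0586 to 0.166), and M1BP within 150 bp (-1.56). Pleiohomeotic turned at a limit of 1000 bp (-0.333), an IDR of 0.001 (-1.10), a window of 50 bp (-0.319) and within 150 bp (-0.628), Zelda in the wider set (-0.133), and the Zic-type core within 30 to 40% GC (0.220). Motif 6 turned at a limit of 250 bp (-1.67), a window of 50 bp (-0.460), 1 summit per promoter (-0.0744), within 150 bp (-1.21) and without 1 replicate (-0.259 to 0.533).

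Between the highest and lowest signal class, the motif 7 difference held 0 without peaks overlapped by a stronger one (-8.02 points), with replicate 2 signal (-7.10), at TSSs 200 to 400 bp apart (-7.29) and within 30 to 40% GC (-12). It was 0 with a window of 200 bp. That of M1BP held 0 without such peaks (-3.09), with replicate 1 (-1.79) or replicate 2 signal (-2.37) and at TSSs 200 to 400 bp apart (-2.08), and turned to 3.55 with a window of 200 bp, with an interval holding 0. Those of DREF and the BEAF-32 core were -4.73 and -8.28 points with a window of 200 bp, both with intervals holding 0. No paired analysis was possible because both samples belong to 1 group. Unknown read depth and the control libraries, which were not analysed here, limit which weak peaks could be called. No number of reads was known for any peak.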

Other observations

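Divergent promoters were a smaller part of the promoter summits on the X chromosome than on the autosomes. They made up 23.3% of promoter summits on the X (81 of 348), against 38.1% on the large autosomal arms (595 of 1560), a difference of -14.9 points (-19.7 to -9.58). The share of genes with an opposite-strand neighbour within 1000 bp was 36.2% on the X and 37.1% on the large autosomal arms. Of these genes, 25.7% on the X had a summit within 500 bp, against 30.8% on the large autosomal arms (-5.10 points, -8.34 to -1.67). Lone genes had one in 13.0% of cases on the X, against 9.79% over all arms. Among the arms, 3R had 193 divergent-promoter summits, 3L 153, 2L 127, 2R 122, X 81 and chromosome 4 none. Chromosome 4 held only 2 promoter summits in all. Of its 22 genes with an opposite-strand neighbour within 1000 bp, 0 had a summit (0 to 14.9%), and 2 of its 58 lone genes did.

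The 11 summits at overlapping genes were led by Adck1 with CG4741 (signal 888, with 291 in replicate 1 and 589 in replicate 2) and the cytochrome c gene Cyt-c-d with CG31808 (847, with 459 in replicate 1 and 386 in replicate 2). The others had signals from 106 to 286 and included Lkb1, a kinase gene of cell polarity, with CG9588 (286), and Dp, a partner of E2F, with Fsn (144). These genes are named after their values were seen.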
